A study of Mus musculus with 6 samples.

Results

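The genes described here are the EGR, NR4A and IER immediate early genes Egr1, Egr2, Egr3, Egr4, Nr4a1, Nr4a2, Nr4a3, Ier2 and Ier3, with the early response gene Btg2, in the retina of BALB/c mice after damaging light. They were chosen by symbol, as all probe sets that the platform annotation assigns to 1 of these 10 genes alone. This gave 20 probe sets of 45101, and 10 genes of 18193. Light damaged mice spent 1 week in darkness before a 6 h exposure to white fluorescent light at 6000 lux, with retinas collected after a further 24 h. Dark adapted mice, the controls, had the same week in darkness and no bright light. Each group has 3 Affymetrix arrays of total retinal RNA. BALB/c is an inbred albino strain whose eyes lack the pigment that shields the retina. The labels give no age, do not say whether retinas were pooled and do not name the replicates as separate animals, so the p-values measure the spread between these arrays, which may be technical.

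Immediate early genes are transcribed within minutes of a stimulus, without new protein synthesis, largely through the serum response factor with its ERK-activated ternary complex partners and through CREB. EGR proteins are zinc-finger transcription factors that bind GC-rich sites, and NR4A proteins are nuclear receptors that act without a known hormone and are controlled mainly by how much of them is made. IER proteins and Btg2 are not classical DNA-binding factors. In most cells their RNA is short-lived and back near its starting level within hours. The comparison asks which of these genes were still higher at 24 h.

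Expression is given on the log2 scale of RMA (robust multi-array average), where a difference of 1 is a doubling. Levels of different genes are not comparable, because their probes differ. Changes are light damaged minus dark adapted. Each gene is represented by its brightest probe set, and limma's moderated test was adjusted by Benjamini-Hochberg over all 18193 genes with a threshold of 0.05. The replicate numbers paired the arrays (the check is given under the processing), so limma's adjusted p from a blocked fit, in which each number has its own level, is given as well.

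None of the 10 genes passed the test, and in the same limma fit 2.01% of all genes passed (316 higher, 1.74%, and 49 lower, 0.269%, in light damaged retinas). With each array centred on reference genes, whose own mean change was 0.39, 132 genes were higher and 438 lower. Of the 20 probe sets 0 passed in the limma fit over all probe sets, against 1.02% of all probe sets, and 2 passed with the replicate block, against 4.68%. At an unadjusted p under 0.05 there were 2 of the 10, Egr1 and Ier2, both higher, against 11.0% of all genes in either direction and 8.58% higher. With the replicate block the same 2 passed over all genes, against 8.87% of all genes (6.73% higher and 2.13% lower). With all 6 arrays, Egr1 and Ier2 were thus called higher at 24 h in the paired fit and not in the unpaired one. The groups did not overlap for 3 of the 10, Egr1, Egr2 and Ier2, each higher in light damaged retinas, where 11.9% of all genes were higher without overlap and 15.6% had no overlap in either direction. Of the 10 changes 8 were positive, with a median of 0.27, against 57.0% positive and a median of 0.03 over all genes. Genes with a mean level above the median of all, 7 of the 10 among them, had a median change of 0.10. The 6 reference genes had a median change of 0.25, with 5 positive. Without the block, a gene with the median standard error of 0.16 needed a change of 0.80 to pass. With the block, whose median standard error was 0.11, such a median gene needed a change of 0.42.

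**Figure D1:**
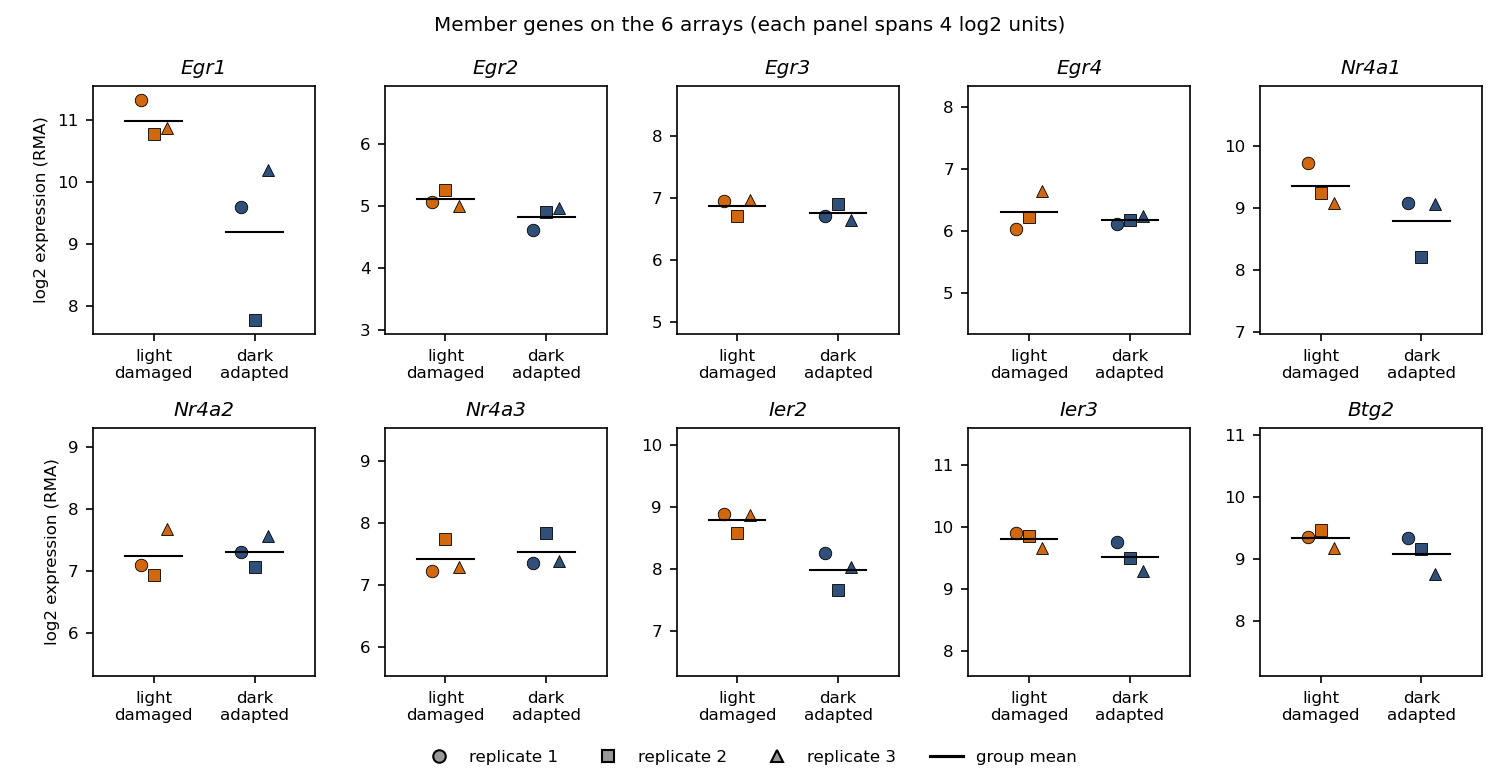
Log2 expression of each of the 10 genes on the 3 light damaged (orange) and 3 dark adapted (blue) arrays, with marker shape for the replicate number and a line for the group mean; every panel spans the same number of log2 units. Egr1 and Ier2 show clearly separate groups and Egr2 barely separate ones, dark adapted replicate 2 is the lowest array for Egr1, Nr4a1 and Ier2, and the groups overlap for Egr3, Egr4, Nr4a1, Nr4a2, Nr4a3, Ier3 and Btg2.

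Egr1 (Zif268), the EGR gene most used as a marker of neuronal activity and growth factor signalling, had values of 11.32, 10.79 and 10.87 in light damaged replicates 1, 2 and 3, against 9.60, 7.78 and 10.20 in dark adapted replicates 1, 2 and 3. All light damaged values lay above all dark adapted ones. The light damaged arrays were close together, at 10.99 ± 0.29, whereas the dark adapted arrays spread widely, at 9.19 ± 1.26 (mean ± SD, n = 3 each). The change of 1.80 ± 0.53 (SE) is a 3.49-fold difference, and 51 genes had a larger positive change. Limma gave adjusted p = 0.183, and adjusted p = 0.00935 with the replicate block, where the standard error was 0.33. The dark adapted SD of Egr1 exceeded that of 99.9% of genes. Without dark adapted replicate 2 the change was 1.10 (limma adjusted p = 0.135).

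The differences within same-numbered pairs of arrays show the same spread in another form. Light damaged minus dark adapted Egr1 was 1.73 in pair 1, 3.00 in pair 2 and 0.67 in pair 3. All 3 pairs were positive for Egr1, and so they were for 6 of the 10 genes, against 27.7% of all genes. Leaving out 1 pair at a time gave mean differences of Egr1 between 1.20, without pair 2, and 2.37, without pair 3, as values without a test.

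**Figure D2:**
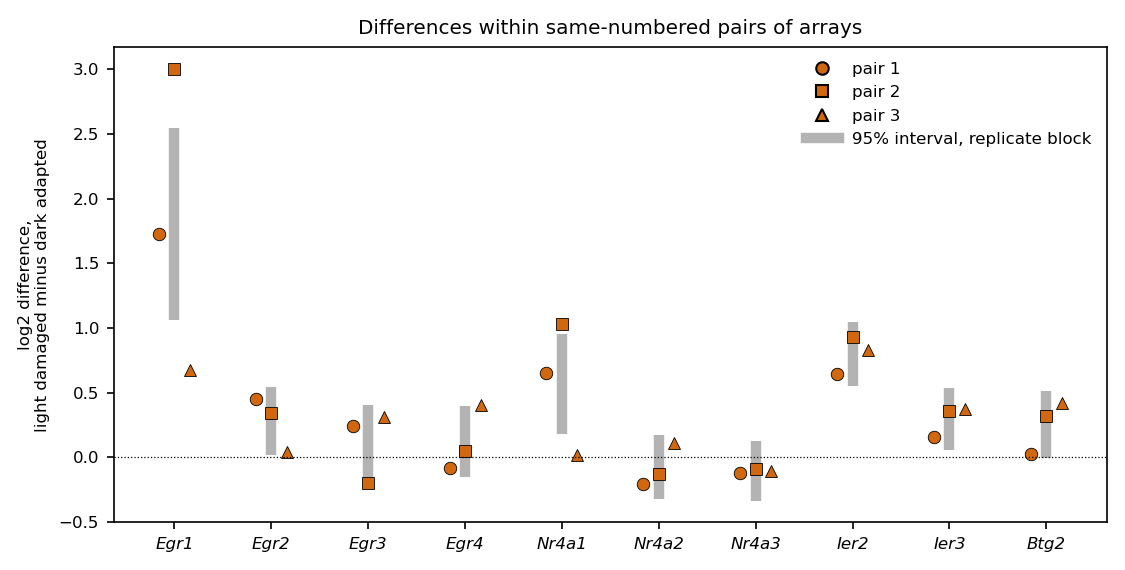
Differences in log2 expression within the 3 same-numbered pairs of arrays (light damaged minus dark adapted) for each of the 10 genes, with grey bars for limma's 95% interval with the replicate block. Ier2 has 3 similar positive differences between 0.64 and 0.93, Egr1 has positive differences between 0.67 and 3.00, and the 3 Nr4a3 differences lie just below 0.

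None of the other EGR genes passed with or without the block. Egr2 (Krox-20), known for its part in Schwann cell myelination and hindbrain patterning, had 5.07, 5.25 and 5.0 in light damaged retinas, against 4.62, 4.91 and 4.96 in dark adapted retinas. The groups did not overlap, but the highest dark adapted and the lowest light damaged value were 0.04 apart, and the change was 0.28 with a 95% interval of -0.06 to 0.61 (limma adjusted p = 0.585; 0.197 with the replicate block). Egr2 was dim, under the lower quartile of all probe sets on 4 of the 6 arrays, and its other probe set, which gave 0.09, was under it on all 6.

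Egr3, a zinc-finger factor needed for muscle spindle development, had 6.96, 6.71 and 6.97 in light damaged retinas, against 6.72, 6.91 and 6.65 in dark adapted retinas. Egr4, needed for male fertility in mice, had 6.04, 6.23 and 6.65 in light damaged retinas, against 6.12, 6.19 and 6.24 in dark adapted retinas. The groups overlapped for both genes, and the Egr3 pair differences had mixed signs (0.24, -0.20 and 0.31). The change was 0.12 ± 0.14 (SE; 95% interval -0.20 to 0.44) for Egr3, with limma adjusted p = 0.893 and 0.647 with the replicate block. It was 0.12 ± 0.17 (SE; 95% interval -0.27 to 0.52) for Egr4, with limma adjusted p = 0.915 and 0.618 with the block. A doubling lies outside both intervals. The second Egr3 probe set gave 0.26, with adjusted p = 0.813 in the limma fit over all probe sets, and was likewise under the lower quartile on all 6 arrays. Egr4 was among the steadiest genes in the dark, with an SD of 0.06 that exceeded that of 7.05% of genes, in contrast to Egr1.

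The Egr2 promoter is shown here because it carries, in a short stretch, the elements through which early genes are classically induced. Of the 10 genes 7 matched the RefSeq promoter table of the build GRCm38.p6, namely Egr2, Egr4, Nr4a1, Nr4a2, Nr4a3, Ier3 and Btg2. Searched were the 250 bases before the start site, on both strands, for the full CRE (TGACGTCA, the CREB site), its core TGACG, which the full site contains, the CArG box bound by serum response factor, the EGR sites GCGTGGGCG and GCGGGGGCG, the NR4A site NBRE (AAAGGTCA) and the AP-1 site TGANTCA. Of the 5 starts listed for Egr2, the one with most matches is printed, at chr10:67537619-67537868 on the plus strand, 5′ to 3′, with matches in capitals.
Egr2: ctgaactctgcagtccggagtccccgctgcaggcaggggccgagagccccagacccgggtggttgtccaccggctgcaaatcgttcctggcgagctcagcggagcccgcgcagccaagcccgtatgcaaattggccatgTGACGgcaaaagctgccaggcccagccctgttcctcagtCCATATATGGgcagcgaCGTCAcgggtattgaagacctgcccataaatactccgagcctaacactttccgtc
Its capitals mark 2 CRE cores and, between them, a CArG box that lies 72 to 63 bases before the start. A CArG box stood in 1.47% of all 32851 promoters and in 1 of the 7 member promoters. The shares over all promoters count each start separately, whereas Egr2 was counted only at the printed start, chosen for its matches. CRE cores stood in 6 of the 7, all but Ier3, against 17.8% of all promoters. Neither the NBRE nor the AP-1 site was found in these 7 windows, where 1.34% and 6.75% of all promoters held them. A match is a run of letters and not a measured site.

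Among the NR4A genes, Nr4a1 (Nur77), a receptor induced by growth factors, calcium and cytokines, had the largest change. Its values were 9.72, 9.24 and 9.07 in light damaged retinas, against 9.08, 8.20 and 9.06 in dark adapted retinas. The lowest light damaged value lay just below the highest dark adapted value, so the groups overlapped narrowly, and dark adapted replicate 2 stood apart below the rest. The change was 0.57 ± 0.27 (SE), a 1.48-fold difference with a 95% interval of -0.05 to 1.18, and did not pass (limma adjusted p = 0.513; 0.0784 with the replicate block). Its pair differences were 0.65, 1.03 and 0.02. Without dark adapted replicate 2 the change was 0.28 (limma adjusted p = 0.870).

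Nr4a2 (Nurr1), which specifies midbrain dopamine neurons, is read by 6 probe sets. The brightest had 7.11, 6.95 and 7.68 in light damaged retinas, against 7.31, 7.08 and 7.57 in dark adapted retinas, and a change of -0.08 ± 0.22 (SE; 95% interval -0.57 to 0.42; limma adjusted p = 0.967 and 0.747 with the replicate block). Light damaged and dark adapted arrays were intermixed. The other 5 Nr4a2 probe sets gave changes between -0.18 and 0.04. Nr4a3 (Nor1), the remaining NR4A receptor, had 7.23, 7.74 and 7.29 in light damaged retinas, against 7.35, 7.84 and 7.39 in dark adapted retinas. Its replicates 2 were the highest of both groups, and within each pair the light damaged array was about 0.1 lower (-0.12, -0.09 and -0.10). The change of -0.11 had a 95% interval of -0.55 to 0.34, or -0.34 to 0.12 with the replicate block (limma adjusted p = 0.940 and 0.596). The other 2 Nr4a3 probe sets both gave -0.18, but with pair differences of mixed sign. These were 0.15, 0.23 and -0.93 for the brighter probe set, and 0.03, 0.13 and -0.70 for the dimmer one. The dimmer one was under the lower quartile of all probe sets on 4 of the 6 arrays. Over the 10 probe sets of the NR4A genes the changes ran from -0.18 to 0.57, with adjusted p between 0.663 and 0.995 in the limma fit over all probe sets. The difference between Nr4a1 and its relatives was not tested.

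**Figure D3:**
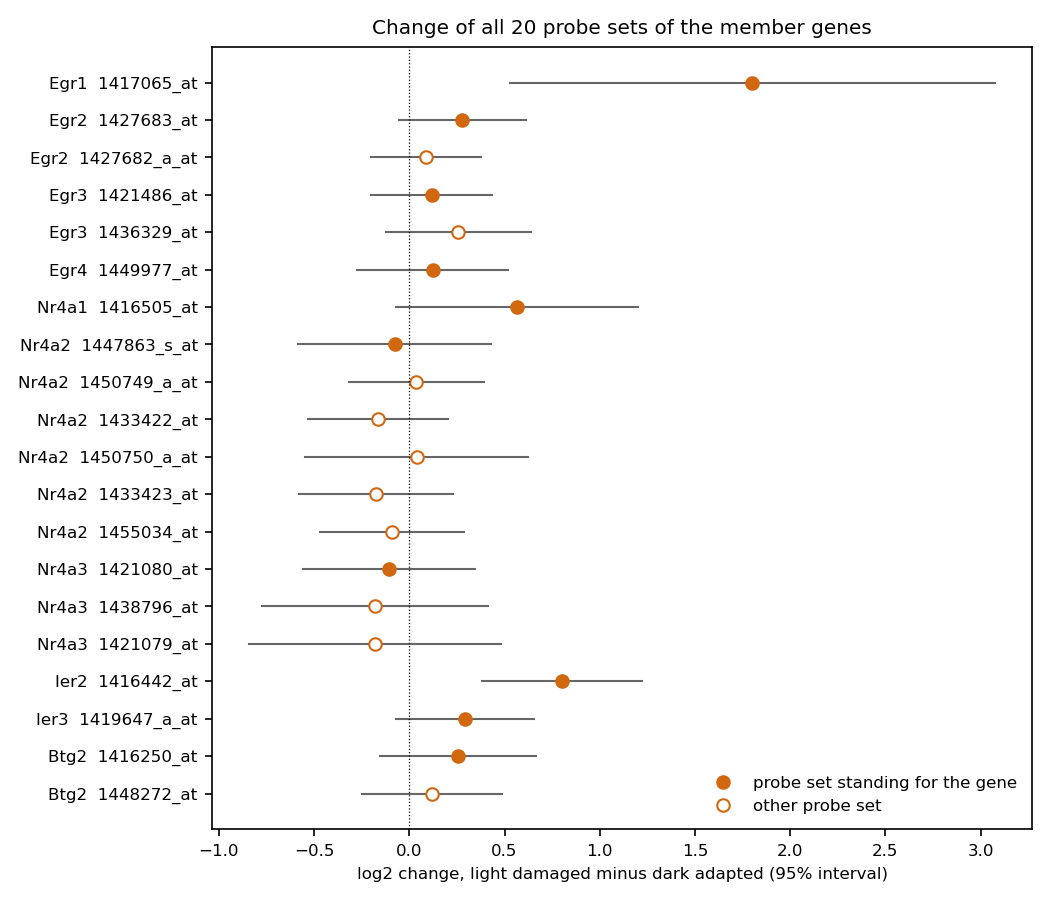
Log2 change (light damaged minus dark adapted) of all 20 probe sets of the 10 genes with limma's 95% interval from the fit over all probe sets; filled points are the probe sets that stand for the gene. The intervals of Egr1 and Ier2 lie above 0, and those of the other probe sets, all 6 of Nr4a2 and all 3 of Nr4a3 among them, include 0.

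The Nr4a1 and Nr4a3 promoters are set side by side because these relatives had the highest and lowest change among the NR4A genes. All promoters printed here were chosen after the values were seen. Both lie on the plus strand of GRCm38.p6, Nr4a1 at chr15:101266596-101266845 and Nr4a3 at chr4:48045055-48045304, printed 5′ to 3′ up to the base before the start, with matches in capitals.
Nr4a1: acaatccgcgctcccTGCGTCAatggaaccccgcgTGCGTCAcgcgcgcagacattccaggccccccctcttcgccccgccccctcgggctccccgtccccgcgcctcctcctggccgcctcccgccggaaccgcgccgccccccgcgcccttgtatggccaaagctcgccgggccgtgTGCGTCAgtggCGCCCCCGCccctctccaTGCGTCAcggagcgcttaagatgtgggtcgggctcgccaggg
Nr4a3: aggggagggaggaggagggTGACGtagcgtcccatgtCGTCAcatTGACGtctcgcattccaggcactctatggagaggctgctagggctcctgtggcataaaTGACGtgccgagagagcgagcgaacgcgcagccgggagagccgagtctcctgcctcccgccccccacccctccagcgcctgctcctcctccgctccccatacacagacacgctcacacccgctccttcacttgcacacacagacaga
Each holds 4 CRE cores. In Nr4a1 every core lies within the longer run TGCGTCA, an element that resembles the AP-1 site and was added to the search after this promoter had been read. TGCGTCA stood in 1.75% of all promoters and in none of the other 6 member promoters. Nr4a1 also holds 1 match to the EGR site GCGGGGGCG, on the minus strand 60 to 52 bases before the start (2.57% of all promoters). Nr4a3 has no match to the EGR sites or the CArG box in this window, and its cores lie between 231 and 143 bases before the start.

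Ier2 (Pip92), a growth factor induced nuclear protein, was the other member that passed with the replicate block. Its values were 8.90, 8.58 and 8.87 in light damaged retinas, against 8.25, 7.66 and 8.04 in dark adapted retinas. The groups were clear of each other. They averaged 8.78 ± 0.17 in light damaged and 7.98 ± 0.30 in dark adapted retinas (mean ± SD, n = 3 each), a change of 0.80 ± 0.18 (SE) and a 1.74-fold difference. Limma gave adjusted p = 0.0770, just outside the threshold, and adjusted p = 0.00191 with the replicate block. The pair differences of 0.64, 0.93 and 0.83 were alike, and leaving out a pair kept the mean difference between 0.74 and 0.88. Of the 6 unpaired fits that each left out 1 array, the gene passed in 1. That fit lacked dark adapted replicate 1 (change 0.94, limma adjusted p = 0.0418). In the other 5, limma gave adjusted p between 0.136 and 0.307, above that with all 6 arrays.

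Ier3 (IEX-1), a stress-induced protein that modulates apoptosis and NF-kappaB signalling, had 9.90, 9.85 and 9.65 in light damaged retinas, against 9.74, 9.50 and 9.28 in dark adapted retinas. Dark adapted replicate 1 reached into the light damaged range. The change was 0.29 ± 0.16 (SE; 95% interval -0.07 to 0.65), with limma adjusted p = 0.601 and 0.138 with the replicate block. Btg2, an antiproliferative p53 target that recruits the CCR4-NOT deadenylase to messenger RNA, had 9.35, 9.47 and 9.17 in light damaged retinas, against 9.33, 9.15 and 8.75 in dark adapted retinas. The groups overlapped, and the change was 0.25 ± 0.18 (SE; limma adjusted p = 0.740 and 0.235 with the replicate block). Its second probe set gave 0.12. Centring each array on 6 reference genes lowers every change by the mean change of those genes, 0.39, so the smaller positive changes of Egr2, Egr3, Egr4, Ier3 and Btg2 turn negative by construction. The reference genes were not level themselves, as Rplp0 rose by 1.20 (limma adjusted p = 0.00441), and the centring moved the median change of all genes to -0.36.

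The Btg2 promoter is shown because it is the only one of the 7 with the full CRE, which 1.55% of all promoters hold. It lies at chr1:134079156-134079405 on the minus strand of GRCm38.p6 and is printed 5′ to 3′ on that strand.
Btg2: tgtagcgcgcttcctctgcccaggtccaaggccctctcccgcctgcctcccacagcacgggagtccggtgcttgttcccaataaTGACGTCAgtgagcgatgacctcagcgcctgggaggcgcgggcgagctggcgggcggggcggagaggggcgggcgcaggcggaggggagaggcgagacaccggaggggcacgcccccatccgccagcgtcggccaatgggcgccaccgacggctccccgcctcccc
The capitals mark TGACGTCA, 166 to 159 bases before the start.

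The dark adapted arrays differed among themselves in these genes. Egr1 in dark adapted replicate 2 differed from the mean of dark adapted replicates 1 and 3 by -2.12, the lowest such value of all 18193 genes. The next lowest gene of all was Fos, the AP-1 subunit induced with Egr1 in most cells, at -1.90. Nr4a1 ranked 51st from the lowest at -0.86 and Ier2 ranked 496th at -0.49. Nr4a3 went the other way, at 0.46, and Egr4 and Ier3 were level at 0.01 and -0.02. Over all genes this difference had a median of 0.01, and the array did not stand apart as a whole, since its median absolute difference from the mean of the other arrays of its group was 0.16, against 0.24 for dark adapted replicate 1 and 0.23 for dark adapted replicate 3. In light damaged replicate 2 the same measure was -0.31 for Egr1, -0.26 for Fos, -0.16 for Nr4a1 and -0.30 for Ier2. Nr4a2 and Nr4a3 differed about as much in both groups, Nr4a2 at -0.44 in light damaged and -0.36 in dark adapted replicate 2, and Nr4a3 at 0.48 in light damaged and 0.46 in dark adapted replicate 2. These values were looked at after dark adapted replicate 2 had been seen to be low in Egr1, and what sets the array apart in these genes was not tested.

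**Figure D4:**
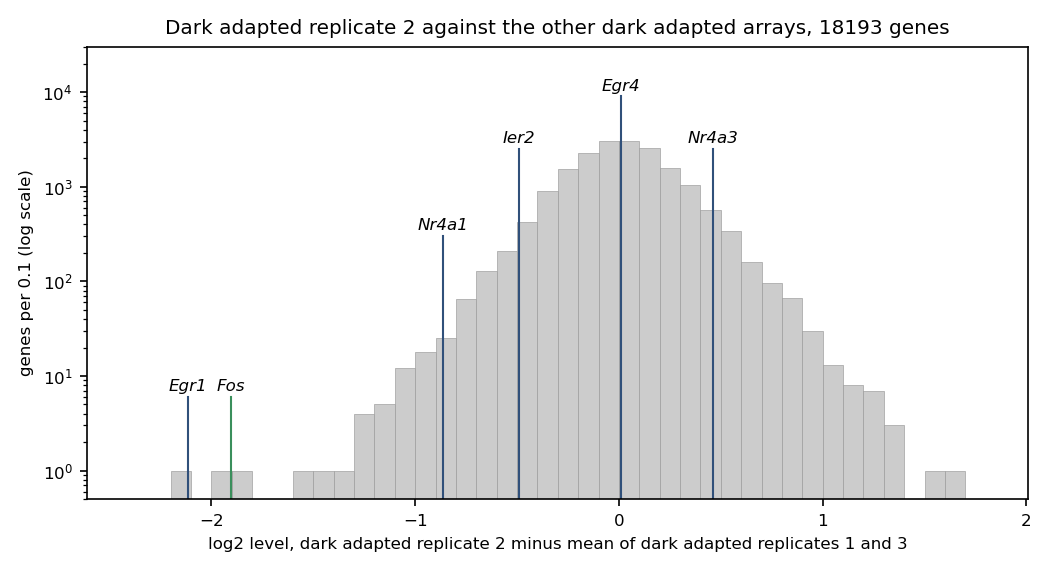
Histogram over 18193 genes of the log2 level in dark adapted replicate 2 minus the mean of dark adapted replicates 1 and 3; the vertical axis counts genes per bin on a log scale and line heights carry no value. Egr1 (-2.12) and Fos (-1.90) lie at the far left, Nr4a1 (-0.86) and Ier2 (-0.49) in the left tail, Egr4 (0.01) at the centre and Nr4a3 (0.46) to the right.

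Other immediate early genes were read beside the 10, and the difference between the lists was not tested. Of a list of 34 such genes, 32 were analysed here, and in limma's test 8 of them rose while 24 missed the threshold. Over all genes 1.74% rose in that test. The median change of the 32 was 0.41, against 0.03 over all genes. By size of change the 8 were Junb, Gadd45b, Atf3, Dusp6, Klf10, Jun, Myc and Zfp36, from 2.18 for Junb, an AP-1 subunit, to 0.99 for Zfp36, which promotes decay of AU-rich messenger RNAs. Gadd45b, a stress sensor, rose by 1.87 ± 0.27 and Atf3, a stress-induced bZIP factor, by 1.73 ± 0.14 (SE). With the replicate block 15 of the 32 passed, all higher, where 6.73% of all genes were higher. Without light damaged replicate 2, and without the block, 5 passed. Egr1 had a change between those of Gadd45b and Atf3, and a standard error of 0.53 against 0.27 and 0.14. Fos had 10.11, 9.85 and 10.10 in light damaged retinas, against 9.28, 7.61 and 9.74 in dark adapted retinas, a change of 1.14 ± 0.47 (SE; limma adjusted p = 0.407, and 0.0367 with the replicate block). Its groups were separate, and dark adapted replicate 2 was the low array, as for Egr1. The neuronal activity genes Arc, Npas4 and Homer1 had changes of 0.21, 0.14 and -0.01 and did not pass in either fit. Npas4 was dim, under the lower quartile of all probe sets on 2 dark adapted arrays. Arc, at 5.31 to 5.63 in dark adapted retinas, lay little above that quartile (4.98 to 5.11 by array). Some genes named in this paragraph, among them Fos, Arc, Npas4 and Homer1, were picked after their values were seen.

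**Figure D5:**
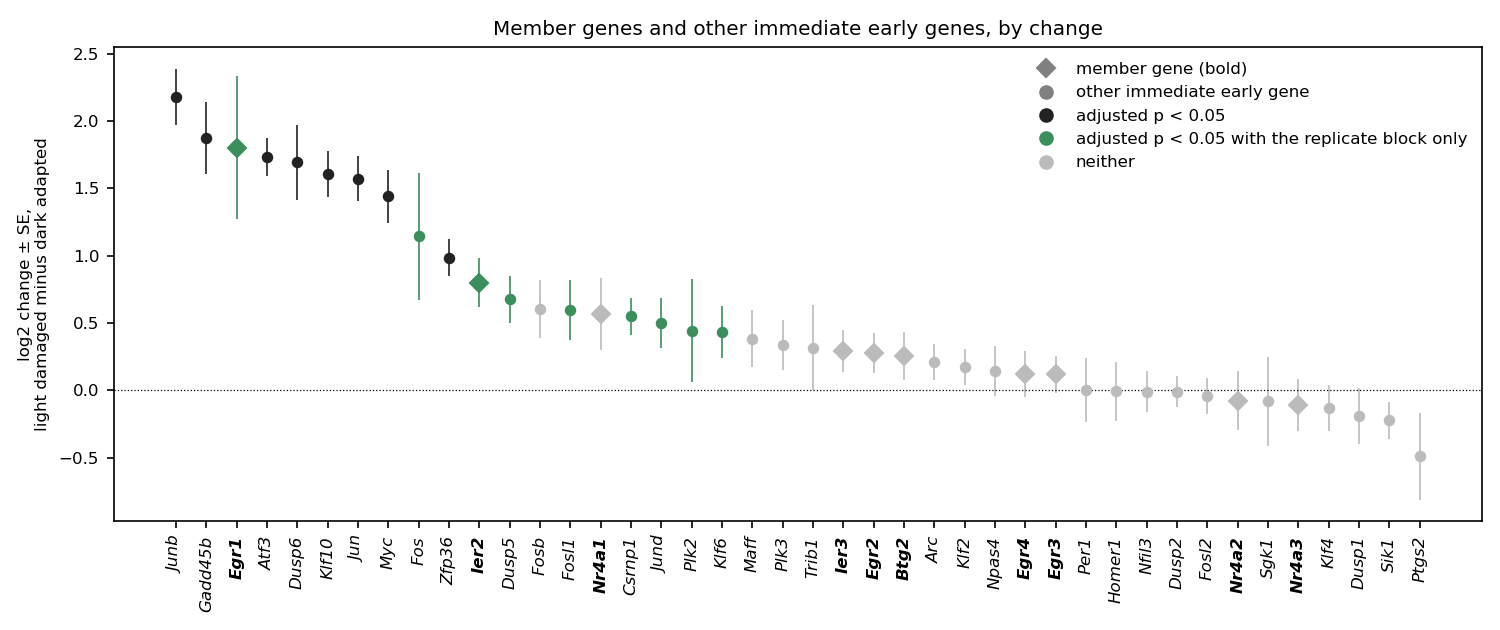
Log2 change ± SE (light damaged minus dark adapted) of the 10 genes (diamonds, bold names) and 32 other immediate early genes (circles), from the highest to the lowest change; black points passed limma's test, green points passed with the replicate block only. Egr1 follows Junb and Gadd45b at 1.80 with a wide error bar, Ier2 (0.80) and Nr4a1 (0.57) lie above the median of the other genes (0.41), and Nr4a2 and Nr4a3 lie just below 0.

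Genes that work with the 10 were read from short lists, where 2.01% of all genes passed without the block and 8.87% with it. Of the EGR corepressors Nab1 and Nab2 with the related zinc-finger factor Wt1, none of 3 passed. Nab2, a corepressor that EGR proteins themselves induce, had 7.49, 7.37 and 7.40 in light damaged retinas, against 6.89, 6.45 and 6.82 in dark adapted retinas. These groups were well apart, and the change of 0.70 ± 0.15 (SE) passed only with the replicate block (limma adjusted p = 0.0642 and 0.00524 with the block). None of the 3 retinoid X receptor genes, partners of Nr4a1 and Nr4a2, passed (Rxrb 0.16, limma adjusted p = 0.818). Of 6 genes of the BTG and TOB family and their partners none passed, and 1 did with the block, Prmt1, an arginine methyltransferase that binds Btg2 (0.50 ± 0.13 SE, limma adjusted p = 0.112 and 0.0222 with the block). Of 3 IER relatives none passed, with Ier5l at 0.45 (limma adjusted p = 0.208).

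The 11 upstream genes analysed covered serum response factor, its ternary complex partners, CREB and its coactivators and the ERK cascade. None passed without the block, against 2.01% of all genes, or with it, against 8.87%. At an unadjusted p under 0.05 in limma there were 0, against 11.0% of all genes. A list of 11 is too short to tell these counts from those shares. Elk3, a ternary complex factor, had the smallest p (0.41, limma adjusted p = 0.497). The median change of the 11 was 0.36, against 0.03 over all genes. Of 8 p53 targets other than Btg2, Phlda3, which restrains AKT, rose by 1.12 ± 0.13 (SE; limma adjusted p = 0.00425) and 7 did not pass. With the replicate block 3 of the 8 passed, Phlda3 with Cdkn1a (0.47) and Zmat3 (0.69).

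The 2 genes with the smallest p, Ier2 and Egr1, were set against all other genes by Pearson correlation over the 6 arrays, as a description, since the arrays form 2 groups and 4263 genes were compared. Closest to Ier2 were Abcg2, an efflux transporter (r = 0.999), Ddost, a subunit of the oligosaccharyltransferase (r = 0.997), and Gabarap, an autophagy protein (r = 0.996). Closest to Egr1 were Dio2, the enzyme that activates thyroid hormone (r = 0.995), Fn1, fibronectin (r = 0.993), and the formin gene Fmnl2 (r = 0.982). As these 6 were chosen for likeness over the same arrays, their own tests would mirror those of Ier2 and Egr1 and are left out. Dio2 shared the low value of dark adapted replicate 2, with 7.99, 7.55 and 7.65 in light damaged retinas, against 7.06, 6.00 and 7.41 in dark adapted retinas.

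The cell type markers that moved alongside were those of glia and photoreceptors. Over all genes 2.01% passed in the limma fit and 8.87% with the replicate block. Reactive glia markers rose in 6 of 6 genes, with a mean level per array of 9.61 to 9.87 in light damaged and 6.91 to 7.37 in dark adapted retinas. Microglia and macrophage markers rose in 2 of 8, Cd68 (1.88) and Lyz2 (1.30), with a mean level of 6.48 to 6.62 in light damaged retinas, against 5.98 to 6.19 in dark adapted retinas. The median change of the 8 was 0.09, and with the replicate block C1qa (1.21) also passed as higher and P2ry12 (-0.48) as lower. Rod markers fell in 1 of 6, and in 3 with the replicate block (11.64 to 12.06 in light damaged retinas, against 12.12 to 12.61 in dark adapted retinas). Cone markers fell in 3 of 6, and in 4 with the block (8.99 to 9.30 in light damaged retinas, against 9.57 to 10.20 in dark adapted retinas), and none of 7 amacrine, 4 bipolar or 5 ganglion cell markers passed in either fit. No marker of Müller glia (6), retinal pigment epithelium (5), vessels (5) or blood (2) passed, though with the replicate block 3 Müller glia markers were higher and 2 lower, and 1 pigment epithelium marker, Ttr (0.99, limma adjusted p = 0.0471 with the block), was higher. Lens genes were bright and uneven in both groups (10.88 to 12.28 in light damaged retinas, against 11.03 to 12.53 in dark adapted retinas), and none of 6 passed, or 1 with the block, Bfsp1 (-1.12, limma adjusted p = 0.00028). In whole retina fewer cells of a type and less RNA per cell cannot be told apart, and the part of these shifts in the changes of the 10 genes was not tested.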

How the data were processed

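Total RNA of BALB/c retinas was measured on 6 Affymetrix arrays, grouped and numbered by the sample titles. The authors used RMA, per the submitters' processing notes, with its version not given in the sources used here. What they deposited are log2 values (3.30 to 13.89, the range from which the scale was inferred), and these were taken as they stand. RMA makes the arrays alike, which hides any shift of all RNA together and narrows differences of dim and bright probe sets. Here the array medians were alike (6.15 to 6.18), but the upper quartiles still ran from 7.41 to 7.67. Of the 45101 probe sets 64 were controls. The platform annotation gave 34945 a single gene, 932 several genes and 9160 no gene. Symbols were checked through Entrez identifiers against RefSeq (GRCm38.p6).

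Genes, each read from its probe set of highest mean, were fitted with limma 3.58.1 (lmFit, eBayes without a trend) in R 4.3.3, and a separate fit took all 45037 probe sets other than controls. P-values were adjusted by Benjamini-Hochberg over all features of each fit, and the fit was tested on simulated data. Deviations from the group means correlated at 0.731, 0.618 and 0.432 between same-numbered arrays (-0.48 to 0.00902 between others), above the limit of 0.1. Arrays of the same number were therefore treated as pairs in the blocked fit, whereas the main fit without the block leaves this pairing out. The pairing rests on the data, since no label says it. The alternatives were the replicate block, renormalization, reference centring, a level filter, other probe set rules, a trend and leaving out each array. The genes, lists and motifs were chosen with earlier results of these data known. Named genes were the 10 members, up to 3 genes with the largest passing change per list or else the 1 with the smallest p, the 3 genes most correlated with each of the 2 members of smallest p (SD of at least 0.3), and others where stated. The number of arrays limits the precision.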

Additional observations from a re-analysis of the deposited data

How the results depend on the processing

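With the replicate block 1613 genes passed in place of 365 (1225 higher and 388 lower in place of 316 and 49), the 365 among them, and 2109 probe sets in place of 458. Members that passed numbered 2 in place of 0, Egr1 (1.80) and Ier2 (0.80), and other immediate early genes 15 in place of 8. Centring on the 6 reference genes analysed, whose mean change was itself 0.39, gave 570 genes, 132 higher and 438 lower, and 772 probe sets, and by construction turned Egr2 (-0.11), Egr3 (-0.27), Egr4 (-0.27), Ier3 (-0.10) and Btg2 (-0.14) negative, with Egr1 at 1.41 and Ier2 at 0.41. Quantile normalization again gave 325 genes higher and 161 lower, with 0 members passing. Egr1 then stood at 1.64 (limma adjusted p = 0.266), Ier2 at 0.69, Nr4a1 at 0.41, Ier3 at 0.14 and Btg2 at 0.11. Egr2 stood at 0.31, Egr3 at 0.08, Egr4 at 0.12, Nr4a2 at -0.14 and Nr4a3 at -0.18. Without _s_at and _x_at probe sets Nr4a2 stood at 0.037. With 1 array left out, 151 (without light damaged replicate 2) to 417 genes passed, with 212, 159 and 180 without light damaged replicate 1, light damaged replicate 3 and dark adapted replicate 2 (141 to 384 higher, 9 to 82 lower) and 128 to 380 probe sets. Then 0 to 1 members passed (Ier2 without dark adapted replicate 1), with 5 to 9 other immediate early genes. Egr1 then lay between 1.10 and 2.31, Ier2 between 0.64 and 0.94, Egr4 between -0.048 and 0.26, Nr4a2 between -0.29 and 0.072 and Nr4a3 between -0.27 and 0.047. Apart from the centring, the cause of these shifts was not tested. Leaving out a same-numbered pair, chosen after seeing the data, gave Egr1 1.20 to 2.37, Nr4a1 0.33 to 0.84 and Egr4 -0.02 to 0.23, as values without a test. The block changed the call of no other member. With 3 arrays a group, changes under about 0.80 without the block could not pass at the median standard error.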
